A study of Homo sapiens with 4 samples.

Results

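The imprinted domain of chromosome band 11p15.5 was examined at 4 genes, H19, IGF2, KCNQ1 and CDKN1C. From the single deposited list of ATAC-seq peaks of the series, the summits on chromosome 11 lying within 10 kb of 1 of these genes were taken, with hg19 gene bounds given to the nearest kb. Distances from a gene start are counted from these rounded bounds. Distances under 1 kb, and the side of the start on which such a summit lies, are therefore approximate. A summit is where the signal of a peak is highest, and a listed region can hold several. The 4 gene windows held 398 summits in 287 regions, of 371521 summits and 197823 regions in the whole list. They were set beside the rest of the stretch from 1900000 to 3000000 on chromosome 11, called the domain below, which held 610 summits outside the windows.

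ATAC-seq tags open chromatin with the Tn5 transposase. It was done on T47D-MTVL cells, derived from a luminal breast cancer line and carrying a luciferase reporter that the MMTV promoter drives. In 2 samples an shRNA against multiple H1 variants was expressed (the multiH1 knock-down), and in 2 control samples an shRNA of random sequence. All 4 samples thus share the reporter and an shRNA. The series asked how the depletion of linker histone H1, which binds the nucleosome at the DNA entry and exit, affects DNA accessibility. By its name the list is a differential one, of the multiH1 shRNA against the random shRNA. Its track line instead calls the first shRNA by a code absent from the labels, and that both names mean the same cells is an assumption. Which samples entered the list, and how the control was used, is not stated, so a summit below is a listed peak and not a measured gain over the control. The list has no value per sample, so no spread between replicates and no difference of the knock-down from the control can be given for any gene below. Its fold enrichments and p-values are the authors'.

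Imprinted genes are expressed mainly from the allele of 1 parent. The 11p15.5 domain is known to hold a pair of imprinting control regions that are methylated on the allele of only 1 parent. The first lies a few kb before the start of H19. On the maternal allele it is bound by the insulator protein CTCF, which keeps enhancers from IGF2, and on the paternal allele it is methylated. The second, KvDMR1, lies inside KCNQ1 at the promoter of the antisense RNA KCNQ1OT1, whose transcription from the paternal allele silences CDKN1C and other neighbours. These deposited values do not separate the alleles.

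H19 is a long non-coding RNA and the host of the microRNA miR-675, IGF2 encodes a fetal growth factor, KCNQ1 a potassium channel and CDKN1C the cell cycle inhibitor p57. Of the 4 genes, 1 (H19) was matched in the RefSeq promoter table, of build GRCh38.p14. Its promoter is shown because the H19 window carried the strongest summits. It lies on the minus strand at chr11:2001217-2001516 of GRCh38.p14, which is another build than that of the peaks, so its place relative to the listed regions is not given. In that build the MIR675 hairpin begins 4435 bp past the start site of this promoter, farther than the 3 kb of the H19 bounds used here. The promoter shown therefore belongs to an H19 start upstream of the one from which distances are counted below. The capitals mark CpG dinucleotides, the sites of DNA methylation.

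H19 promoter: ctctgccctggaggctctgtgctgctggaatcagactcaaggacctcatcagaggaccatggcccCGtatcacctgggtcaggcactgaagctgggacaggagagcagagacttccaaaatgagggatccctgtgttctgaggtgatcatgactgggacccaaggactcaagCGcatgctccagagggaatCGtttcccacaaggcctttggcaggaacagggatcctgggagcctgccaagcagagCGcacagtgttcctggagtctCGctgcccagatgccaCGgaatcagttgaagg

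This promoter sequence held 6 CpGs, against a median of 14 in 35116 promoters of the same length, of which 33.7% held fewer. On both strands, the GC box GGGCGG was found in 45.0% of those promoters and the TATA motif TATAAA in 11.5%. Neither string occurred in the H19 promoter, which says only that the letters are not in this window. The mature forms of miR-675 in RefSeq are given below with bases 2 to 8, the seed, in capitals.

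hsa-miR-675-5p: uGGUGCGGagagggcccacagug

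hsa-miR-675-3p: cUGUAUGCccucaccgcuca

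Both forms come from the H19 transcript and have different seeds. No RNA was measured here, so their levels are not known.

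The pileup, the number of reads over a summit, was recovered from the listed fold and p-value, which share a common background of 2.01 reads wherever it could be solved. A fold therefore measures reads against 1 level for the whole genome, and not against the random shRNA control at the same place. The lowest pileup listed was 10 reads. The total reads per sample are not known from these values. A stretch without listed regions held no peak that both reached 10 reads and met the other, unstated settings of the peak caller. This does not show closed chromatin. The narrowest region of the whole list was 96 bp. Intervals below cover counting error only. They treat summits as independent, which those of 1 region are not, and reads as molecules, although PCR copies carried no molecular identifiers.

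The domain was densely listed, with a smaller share of summits at 20 reads or more than on chromosome 11 or in the whole list. The 4 gene windows had 777 summits per Mb (95% exact Poisson interval 703 to 858), against 1037 (957 to 1123) in the rest of the domain, 199 over chromosome 11 and 124 over the whole list. The ratio of the gene windows to the rest of the domain was 0.749 (95% exact interval 0.659 to 0.852). It was 1.52 (1.25 to 1.83) for H19, IGF2 and CDKN1C together, so the value over all 4 genes rests on KCNQ1, which made up 425 kb of the 512 kb of windows. Taken alone, H19 stood at 2.14 (1.57 to 2.85) and IGF2 at 1.58 (1.21 to 2.03). CDKN1C stood at 0.796 (0.476 to 1.25), an interval that includes 1, and KCNQ1 at 0.592 (0.510 to 0.685). The value of 1.52 thus rests on H19 and IGF2. In the gene windows 12.8% of summits had 20 reads or more (95% Wilson interval 9.88 to 16.5%), against 13.1% in the rest of the domain (10.7 to 16.03%), 20.5% on chromosome 11 and 26.5% in the whole list. The median fold was 4.99 in the gene windows and 4.99 in the rest of the domain, against 5.32 in the whole list. Listed regions covered 15.1% of the bases of the gene windows, against 20.6% in the rest of the domain and 3.87% on chromosome 11.

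The 4 genes differed from one another. H19 had 51 summits in its 23 kb window, or 2217 per Mb (1651 to 2915). IGF2 had 67 in 41 kb, or 1634 per Mb (1266 to 2075). CDKN1C had 19 in 23 kb, or 826 per Mb (497 to 1290). KCNQ1 had 261 in 425 kb, or 614 per Mb (542 to 693). In this order the intervals of neighbours overlapped, those of H19 and CDKN1C did not, and those of H19 and IGF2 lay above that of KCNQ1. All 4 densities were above the 199 per Mb of chromosome 11, from 3.09 times it for KCNQ1 to 11.2 times for H19. Nearby sequence was also dense, with 1037 per Mb in the rest of the domain. Against the first 5 Mb of chromosome 11 outside the windows, the ratio of the 4 windows together was 1.28 (1.15 to 1.42). With each region counted by its own distinct start and end, the windows of H19, IGF2, CDKN1C and KCNQ1 held 25, 37, 14 and 211 regions.

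**Figure D1:**
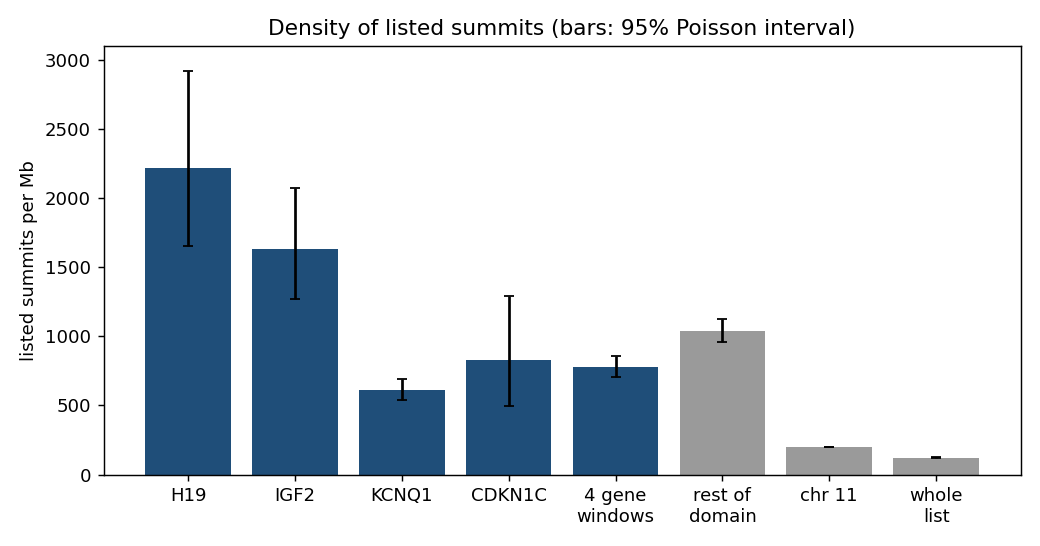
Listed summits per Mb in the 4 gene windows, in all of them together, in the rest of the domain, on chromosome 11 and in the whole list. Error bars are 95% exact Poisson intervals, which cover counting error only. H19 stands at 2217 and KCNQ1 at 614 per Mb, against 1037 in the rest of the domain.

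The strongest listed signal of the 4 genes lay before the start of H19 used here, in the few kb where the imprinting control region is known to lie. The upstream H19 start whose promoter is shown above also lies on this side. Whether it falls in the region described next was not determined, so signal of a promoter and of the control region cannot be told apart here. A single region at chr11:2021132-2023969 (hg19) was 2838 bp wide and spanned from 2.13 to 4.97 kb before the gene start. It held 10 summits. The 5 nearest to the gene had 31, 33, 44, 49 and 52 reads, and the 5 farther away had 29, 26, 36, 34 and 16 reads. Signal was thus highest in the part of the region that faces H19, with a second rise 4.38 kb before the start. The highest summit, at 2021936, was 2.94 kb before the gene start, with a fold of 17.6 and a −log10 p of 54.4. No other summit of the domain had a higher fold, and 140 of the 26761 summits on chromosome 11 did. The region was also the widest of the domain, and 99.7% of the regions on chromosome 11 were narrower.

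Most strong summits of the H19 window lay in that region. In the region 9 of 10 summits had 20 reads or more, and in the rest of the H19 window 6 of 41 did (14.6%, 95% Wilson interval 6.88 to 28.4%). The region was named because it held the highest summits and was the widest, so its contrast with the rest follows from that choice and is descriptive only. Its 10 summits belong to 1 region, so no interval is given for their share. The median pileup was 33.5 reads in the region and 15 in the rest of the H19 window. Over the whole H19 window 15 of 51 summits had 20 reads or more (29.4%, 18.7 to 43.0%). This share rests on 1 region, since without it the value was 14.6%, against 13.4% in IGF2 and 15.8% in CDKN1C.

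Nearer to H19, the 1 kb before the gene start held 4 summits of up to 24 reads, and the first 1 kb of the gene held 4 of up to 27 reads. The summit nearest to the rounded start was 161 bp inside the bounds used and had 12 reads. Over the 3 kb of the gene there were 9 summits with a median of 13 reads. Past its end, the 10 kb downstream held 20 summits, of which the highest, at 2008590, had 35 reads and a fold of 11.97. That summit was the fifth highest of the window and lay 10.4 kb from the gene start.

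**Figure D2:**
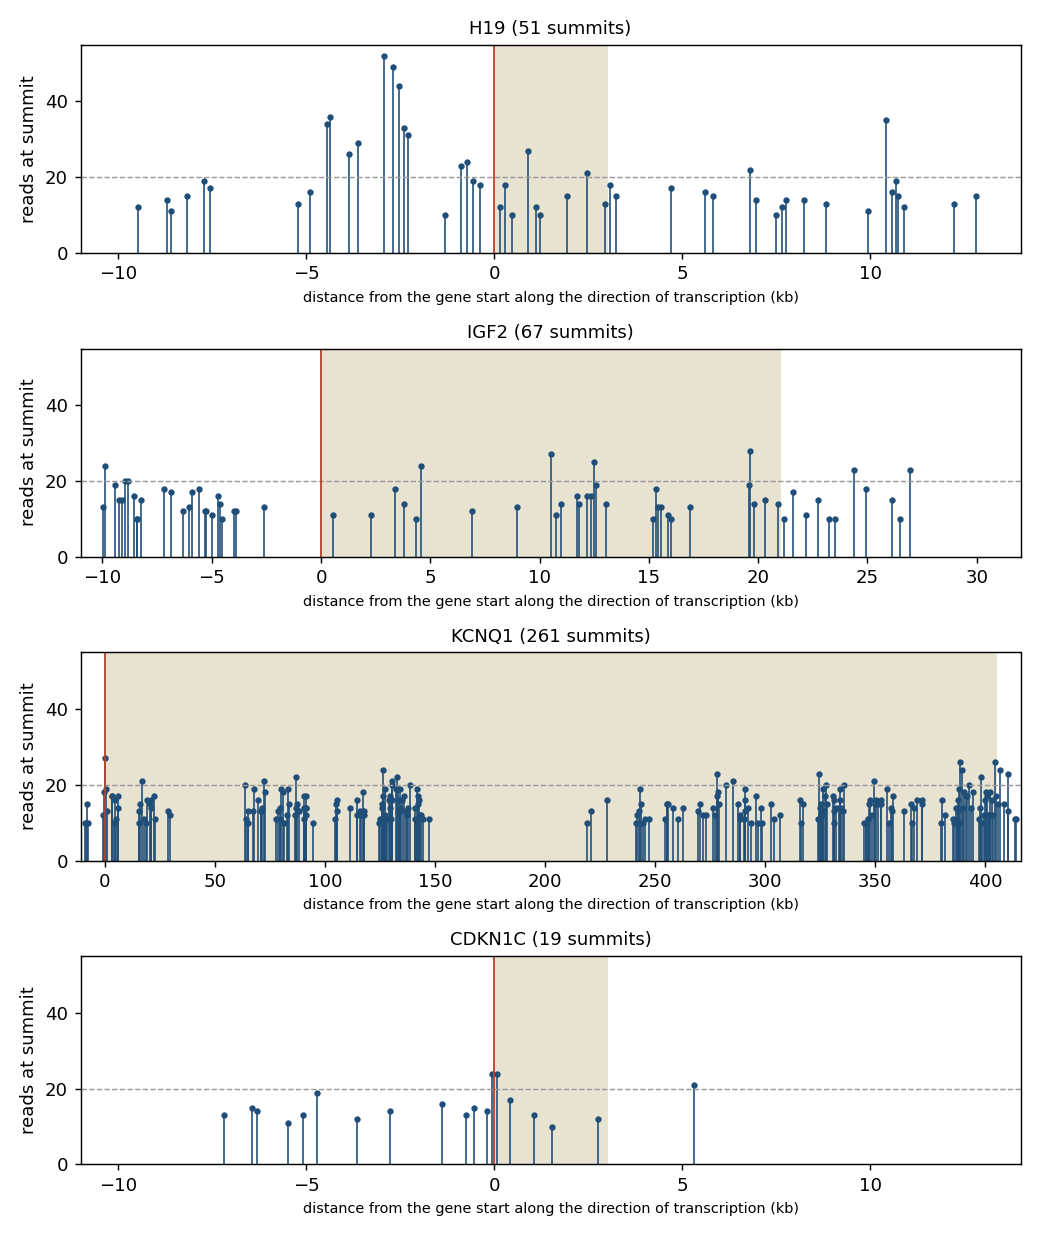
Reads at each listed summit of H19, IGF2, KCNQ1 and CDKN1C against the distance from the gene start in kb, counted along the direction of transcription. Shading marks the gene, the red line its start and the dashed line 20 reads. The highest summits before H19, of up to 52 reads, stand above all others, and KCNQ1 shows a wide stretch without summits.

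IGF2 was listed along most of its window, with no strong summit at the gene start used here. IGF2 is known to be transcribed from several promoters, and which summits lie at which promoter was not analysed here. Within 2 kb of the start that the rounded gene bounds give only 1 summit was listed, of 11 reads and 533 bp inside these bounds. The longest gap between listed regions of the window, 2971 bp, lay across this start. At the other end of the window, past the gene, the last summit lay 4076 bp from the window edge. The 5 highest summits of IGF2 had 28, 27, 25, 24 and 24 reads. They lay 19.6, 10.5, 12.5 and 4.55 kb past the start, and, for the second of 24 reads, 9.89 kb before it. The highest, at 2151359, had a fold of 9.64. Of the 67 summits 9 had 20 reads or more (13.4%, 7.23 to 23.6%), which is close to the 13.1% in the rest of the domain.

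Within the IGF2 window the summits were uneven. The flank before the gene start held 26 summits in 10 kb, with a highest pileup of 24 reads, and 24 of these 26 were over 4 kb from the start. By order in the annotation the neighbour on that side is INS, the insulin gene. The 14 kb from 4 kb before to 10 kb past the start held 10 summits. The remaining part of the gene, from 10 kb past the start to its end, held 22, among them the 3 highest of the window. The widest region of the window, 1460 bp at chr11:2180740-2182199 (hg19), runs out of it at the far end of that flank.

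KCNQ1 was listed in clusters of summits of at most 27 reads, with the highest of them near the gene start. The summit at 2466112, in the region chr11:2466057-2466408 (hg19), lay 111 bp from the rounded start and had 27 reads and a fold of 9.31. The next highest had 26 reads each, 389 and 405 kb from the start, followed by 24 reads at 126 and 389 kb. Apart from the summit at 126 kb, these lay near the far end of the gene. Of the 261 summits 24 had 20 reads or more (9.20%, 6.26 to 13.3%), the lowest share of the 4 genes, although its interval overlapped those of IGF2 and CDKN1C. No region in the KCNQ1 window reached 1 kb, and the widest was 860 bp.

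Along the gene, counted in bins of 10 kb from the start, the number of summits ran from 0 to 16 with a median of 6. The bins with the most summits were those from 120 to 130 kb and from 130 to 140 kb with 16 each, from 380 to 390 kb with 15, from 400 to 410 kb with 13 and from 390 to 400 kb with 12. Of 43 bins 10 had no summit. The longest stretch without a listed region ran from 147 to 219 kb past the start (2613370 to 2685090, 71.7 kb), or 16.9% of the window. It was also the longest such stretch of the domain. A second, of 34.1 kb, began 29.5 kb past the start. On both sides of the longest stretch the density was alike, at 763 summits per Mb before it (632 to 912) and 719.7 after it (606 to 849).

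The bin from 250 to 260 kb is known to hold the start of KCNQ1OT1 and with it KvDMR1, the second control region. It held 5 summits, of 11, 15, 15, 15 and 14 reads, at 2720479, 2721229, 2721495, 2721689 and 2724259. Of these, 3 lay within 1 kb of one another, in the regions chr11:2721060-2721257 and chr11:2721367-2721714 (hg19). Their folds were all 5.32, equal to the median of the whole list. The 10 summits of the H19 region had 16 to 52 reads, against 11 to 15 reads in this bin. Summits were thus listed in both places where the control regions are known to lie. Being listed does not by itself set either place apart. Only 10 of the 43 bins of KCNQ1 were without a summit. The median bin held 6, against 5 in the bin from 250 to 260 kb. The whole H19 window was densely listed, at 2217 summits per Mb. The places are unlike units, 1 region named for its highest summits and a fixed bin of 10 kb. The bounds of the control regions were not laid over the list, so their own strengths are not compared. Whether the difference in reads exceeds a spread between samples cannot be given. From its start, KCNQ1OT1 is transcribed back toward the start of KCNQ1. In that direction the bin from 240 to 250 kb held 8 summits, and the 3 bins from 210 to 240 kb held 3 in all. The longest stretch without a listed region, from 147 to 219 kb, reached into the first of these 3 bins. A link of this stretch to KCNQ1OT1 was not tested.

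**Figure D3:**
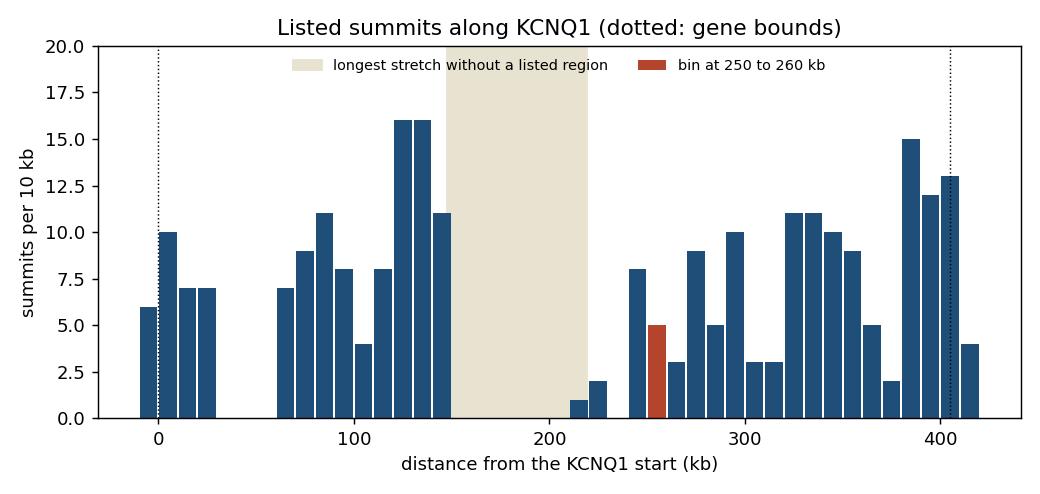
Number of listed summits in each 10 kb bin along KCNQ1, by distance from its start in kb. The last bin holds only the end of the window. The shaded stretch of 71.7 kb has no listed region, and the bin from 250 to 260 kb, which is known to hold the KCNQ1OT1 start, has 5 summits.

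CDKN1C had its highest summits near its start. The region chr11:2906832-2907283 (hg19) held a pair of summits of 24 reads each, at 2906939 and 2907060, with a fold of 8.31. They lay 62 bp inside and 59 bp before the rounded start, so their side of the actual start is not known. The next highest had 21 reads, 5.31 kb past the rounded start, then 19 reads 4.72 kb before it and 17 reads 409 bp past it. The 19 summits of the window spanned 10 to 24 reads around a median of 14, and 3 had 20 reads or more (15.8%, 5.52 to 37.6%). Listed summits lay mainly on the side before the gene start, with 13 in the 10 kb upstream, 5 in the 3 kb gene and 1 in the 10 kb downstream. No region of this window was wider than 535 bp.

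Of the rounded gene starts used here, those of KCNQ1 and CDKN1C had the highest summit of the window near them, and those of H19 and IGF2 did not. For KCNQ1 this rests on 27 reads against 26 for the next highest. The upstream start of H19 and the several promoters of IGF2 were not placed, so no contrast between the promoters of the genes can be drawn. Within 1 kb of the rounded start lay 8 summits for H19, 6 for CDKN1C, 4 for KCNQ1 and 1 for IGF2. Of all 398 summits 113 lay within 10 kb of a start (28.4%, 24.2 to 33.0%), where 15.6% of the window length lies. Within each gene, by contrast, the interval of the share of summits included the share of the length. The pooled shares mix windows that differ in summit density and in how much of their length lies near a start. They are therefore not read as an excess of summits at gene starts. The share was 6.13% of summits against 4.71% of length in KCNQ1 (3.81 to 9.72%), 50.7% against 48.8% in IGF2 (39.1 to 62.3%) and 86.3% against 87.0% in H19 (74.3 to 93.2%). In CDKN1C all 19 summits lay within 10 kb of the start, against 87.0% of the length (83.2 to 100% of summits).

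The windows of the 4 genes were set side by side in the strength and spacing of their summits. The highest pileup was 52 reads for H19, 28 for IGF2, 27 for KCNQ1 and 24 for CDKN1C, against 35 in the rest of the domain. The median pileup was 16 reads for H19 and 14 each for IGF2, KCNQ1, CDKN1C and the rest of the domain, against 15 on chromosome 11. The median distance between neighbouring summits was 296 bp in H19 and 280.5 bp in IGF2, against 547 bp in CDKN1C and 596.5 bp in KCNQ1. A region held on average 2.04 summits in H19, 1.81 in IGF2, 1.36 in CDKN1C and 1.24 in KCNQ1, against 1.51 in the rest of the domain.

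**Figure D4:**
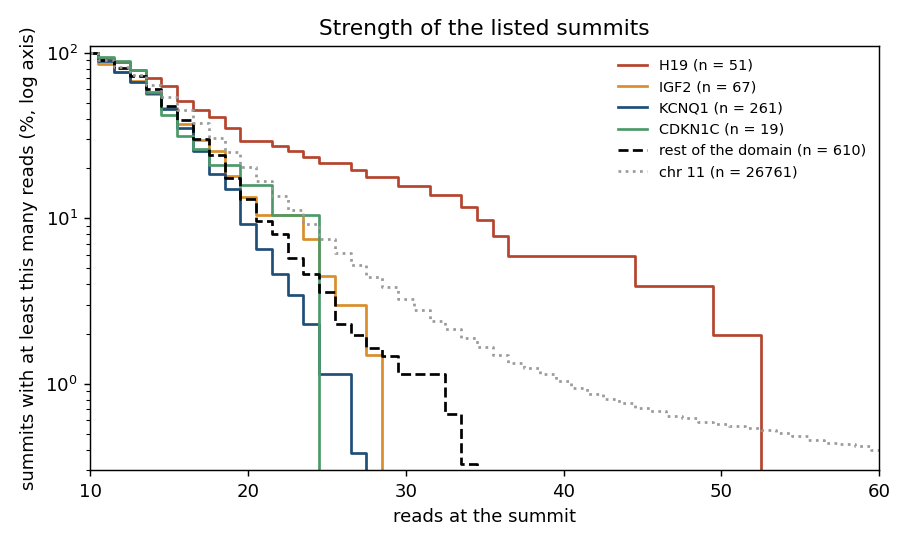
Percentage of summits, on a log axis, with at least the number of reads on the x axis, for each gene window, the rest of the domain and chromosome 11. The H19 line runs above the others from about 15 reads to its end at 52 reads, and the lines of IGF2, KCNQ1 and CDKN1C end between 24 and 28 reads.

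The windows were bounded by distance, so the summits at their edges are given once. At the 8 edges the summit just inside had 10 to 23 reads and the one just outside 10 to 16 reads. At 1 edge, that of IGF2 toward INS, both lay in the same region.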

How the data were processed

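ATAC-seq libraries of T47D-MTVL cells were sequenced from 2 multiH1 knock-down and 2 random shRNA samples, per the labels. The submitters' processing notes name Bowtie 1.1.2, MACS2 and hg19. How the peak caller was set and whether replicates were pooled is not stated there. The authors deposited 1 narrowPeak list, in which the fold is a ratio of the summit's signal to its background and the p-value and q-value are −log10 values. The score deposited by the authors was, within 1 unit, −log10 p times 10 in all 371521 lines.

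Summits, counted from 1, were assigned to a gene within 10 kb of the bounds. Pileups were solved from fold and p as a Poisson tail, with a tolerance of 0.001 on −log10 p. All 182 distinct pairs with −log10 p in the range of ordinary floating point gave a background of 2.01 reads, and the solver was tested on simulated data. Directions of transcription are background knowledge. No differential test was run, since no sample has a value of its own. Intervals are 95% Wilson, exact Poisson or exact binomial. Named were the 4 genes, and for each its 5 summits of highest fold, its widest region and the summit nearest to the start. For KCNQ1 the 5 fullest bins, the KCNQ1OT1 bin and the longest empty stretch were also named. The members and lists were chosen with earlier results of these data known. Alternatives changed the threshold, the flank, the overlap, the counting of regions, the genes and the comparator. The promoter and miRNA sequences are RefSeq's, and the gene table, of GRCh38.p14, was used only for names and neighbours. Python 3.11.15, numpy 2.4.6, scipy 1.17.1, pandas 2.3.3 and matplotlib 3.10.9 were used.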

Additional observations from a re-analysis of the deposited data

How the results depend on the processing

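The ratio of summit density in the gene windows to the rest of the domain, 0.749, became 1.52 without KCNQ1, 1.28 against the first 5 Mb of chromosome 11 and 3.96 against the whole of it, so the direction depends on KCNQ1 and on the comparator. It was 0.631 with no flank, 0.862 with a flank of 20 kb and 0.871 with the longest empty stretch of KCNQ1 left out of the length, and stayed within its interval under the other 7 of 13 alternatives. Among these 7, at 20 reads or more it was 0.732, with an interval of its own from 0.505 to 1.05 that includes 1. The number of summits, 398, became 190 in the upper 50% of fold, 51 at 20 reads or more and 137 without KCNQ1, each by construction. The share at 20 reads or more, 12.8%, was 26.8% in the upper 50% of fold and 19.7% without KCNQ1, and the median fold, 4.99, was 5.98 in the upper 50% of fold and 7.98 at 20 reads or more, by construction. The share within 10 kb of a start, 28.4%, was 43.1% at 20 reads or more, 23.3% with each region counted once, 10.96% with no flank, 21.7% with a flank of 5 kb, 22.4% with a flank of 20 kb and 70.8% without KCNQ1. A q-value of 0.001 removed no summit, so this alternative could not change any value. The alternatives without the widest H19 region and without the empty stretch were chosen after the data were seen. No paired analysis was possible because no sample has values of its own in the peak list, and for the same reason no replicate could be left out. The minimum of 10 reads over a background of 2.01 limits the list.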

Other observations

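Beside the gene windows, the stretch from 1900000 to the H19 window had 1481 summits per Mb (95% exact Poisson interval 1259 to 1732), of which 19.1% had 20 reads or more. The stretch between H19 and IGF2 had 819.8 per Mb, and 3 of its 91 summits (3.30%) had 20 reads or more. Within it lay an empty stretch of 31.1 kb from 2062825. The stretch between IGF2 and KCNQ1, which by gene order holds INS, TH, ASCL2, TSPAN32, CD81, TSSC4 and TRPM5, had 1022 summits per Mb and the highest summit of the domain outside the windows, at 2442122 with 35 reads. Between KCNQ1 and CDKN1C lay 8 summits in 13 kb, none over 14 reads. After CDKN1C, in the direction of SLC22A18, PHLDA2 and NAP1L4, there were 879.5 summits per Mb, of which 21.9% had 20 reads or more, with a highest pileup of 33 reads at 2930455.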
